A study of Mus musculus with 2 samples.

Results

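The genes of cholesterol metabolism described here, 8 in number, were followed through single cells of mouse small intestinal organoids, miniature epithelia that grow in culture from crypt cells. They are the 8 rows Hmgcs1, Idi1, Fdps, Fdft1, Sqle, Lss, Insig1 and Srebf2 of a matrix of 31053 genes. They were chosen by name, and all 8 passed the floor of 10 CPM (UMIs per 1000000 UMIs of a group) in every comparison below. Although the set was put together as cholesterol synthesis and uptake genes, 6 of the 8 code for enzymes of synthesis and 2 for its control, and none codes for an uptake receptor. Uptake genes such as Vldlr and Npc1l1 are therefore given from a wider list of 43 other pathway genes.

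Cholesterol is built from acetyl-CoA in a long chain of steps. In the mevalonate arm Hmgcs1, a synthase, acts near the entry, and further down Idi1 and Fdps isomerise and join isoprenoid units into farnesyl diphosphate. In the sterol arm Fdft1 makes squalene, Sqle oxidises it, and Lss closes the rings to give lanosterol. The transcription factor SREBP2, the product of Srebf2, is held in the endoplasmic reticulum by Insig1 and Scap while sterols are plentiful. When sterols run short it is cleaved and switches on the synthesis genes and Insig1 itself. The gut epithelium both makes cholesterol and takes it up from the lumen, where Npc1l1 imports it and Abcg5 with Abcg8 pumps it back out.

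The study set melatonin-treated organoids against untreated ones, 1 library each on culture day 3, and each library pooled 3 organoid lines before capture on a droplet-based 3' platform. The matrices deposited for the control and the melatonin sample were identical in all 3 files, so the data count as 1 sample and no comparison of control with melatonin was made. Barcodes ended in 1 or 2, and nothing in the labels links a suffix to a treatment. They are called set 1 and set 2, a direction between them is arbitrary, and 29 barcode sequences occurred with both suffixes, 7 kept cells among them. Of 21806 barcodes, 4066 passed limits of 500 genes, 1000 UMIs (unique molecular identifiers, the counted transcripts) and 20% mitochondrial UMIs, namely 2300 in set 1 and 1766 in set 2, with medians of 29872 and 28759 UMIs. Levels in CPM are sums over all cells of a group. There are no replicates and no test was made, and all intervals are 95% intervals that cover counting error only.

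Cells were gated by the share of their UMIs that fell on marker lists. The enteroendocrine gate held 279 cells of set 1 and 266 of set 2, the enterocyte gate 122 and 175, the goblet or Paneth gate 47 and 55, and the revival gate, for cells with genes of the injury response such as Anxa1 and Clu, 20 and 29. Another 1778 and 1187 cells passed no gate and are called crypt cells here, because they hold most of the cycling cells. Of kept cells past the limit of 15 G2 and mitosis UMIs per 10000, they hold 1368 of 1439 in set 1 and 653 of 715 in set 2. Cycling was not theirs alone, since the goblet or Paneth gate had medians of 19.3 and 15.8 such UMIs per 10000. The 10 genes that led the enteroendocrine gate were Reg4, Chga, Vim, Chgb, Ucn3, Tph1, Tpbg, Afp, Tac1 and Rab3c. Of these, 3 (Chga, Chgb and Tph1) are among the markers that define the gate. Those that led the enterocyte gate included Lct, Slc2a2 and Fabp1, and Fabp1 is among its markers. Those that led the goblet or Paneth gate were mostly its own markers, but its make-up differed between the sets, with medians of 95.1 goblet-marker and 52.5 Paneth-marker UMIs per 10000 in set 1 and of 1.31 and 64.6 in set 2. Markers of other tissues were close to absent, with Ptprc, Col3a1, Dcn and Lum at 0 and summed levels of at most 1.72 CPM for 6 immune genes and 0.21 CPM for 6 mesenchymal genes in either set. The revival gate was led by Crct1, Ly6d, Anxa1, S100a6, Msln, Anxa3, Nts, Serpinb9b, Il1rn and Lor, 4 of them its own markers, with genes of cornified epithelia such as Lor and Crct1 beside them, and without Clu. A further 50 cells of set 1 and 53 of set 2 passed more than 1 gate and stayed out of the classes.

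Promoters of 5 of the 8 genes matched the RefSeq table (GRCm38.p6), namely Hmgcs1, Idi1, Insig1, Lss and Srebf2. The 250 bases before the start are shown for Hmgcs1, whose window holds the exact sterol element, for both control genes and for Idi1, whose values below differ from theirs. Capitals mark letters that match TCACNCCAC, a core of the sterol regulatory element, on either strand with at most 1 mismatch, and CCAAT on either strand (ATTGG on the strand shown). All lie on the plus strand, at chr13:119690101-119690350, chr5:28071162-28071411, chr15:82147019-82147268 and chr13:8885356-8885605 in the order of the lines.
Hmgcs1: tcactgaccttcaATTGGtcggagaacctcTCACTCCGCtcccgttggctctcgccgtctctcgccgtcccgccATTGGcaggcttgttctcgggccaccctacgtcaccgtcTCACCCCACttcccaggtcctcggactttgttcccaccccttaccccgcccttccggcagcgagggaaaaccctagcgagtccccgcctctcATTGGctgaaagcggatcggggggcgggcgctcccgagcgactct
Insig1: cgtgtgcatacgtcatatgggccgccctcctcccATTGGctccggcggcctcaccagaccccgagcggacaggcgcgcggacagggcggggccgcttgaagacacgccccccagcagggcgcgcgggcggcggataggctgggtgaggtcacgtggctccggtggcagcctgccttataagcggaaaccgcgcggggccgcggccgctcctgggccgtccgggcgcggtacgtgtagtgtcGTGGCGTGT
Srebf2: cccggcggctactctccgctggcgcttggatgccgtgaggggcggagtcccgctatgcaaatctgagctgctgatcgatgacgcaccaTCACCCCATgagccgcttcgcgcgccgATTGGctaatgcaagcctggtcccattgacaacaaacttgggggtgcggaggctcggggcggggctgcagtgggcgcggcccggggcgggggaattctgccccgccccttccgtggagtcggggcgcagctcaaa
Idi1: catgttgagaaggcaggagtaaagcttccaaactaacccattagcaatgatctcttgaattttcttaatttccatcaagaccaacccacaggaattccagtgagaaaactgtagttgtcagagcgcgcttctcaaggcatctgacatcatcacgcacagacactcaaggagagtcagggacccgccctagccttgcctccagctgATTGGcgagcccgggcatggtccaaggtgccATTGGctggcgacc
In windows of 300 bases that also hold the first 50 transcribed bases, TCACNCCAC matched Hmgcs1 alone of the 5 genes, against 1.24% of 32851 windows in the table. With 1 mismatch allowed it matched Hmgcs1, Insig1 and Srebf2, against 24.2% of windows. Idi1 and Lss had no such match. Lss, whose bases are not shown, was called higher in the enteroendocrine gate in both sets, while Idi1 was called in neither (values below). CCAAT was present in 5 of 5 genes, against 37.4% of windows, and GGGCGG, the GC box, in 5 of 5, against 35.7%. Both strands were searched and none of the matches in the 5 genes overlapped. A match of letters is a description and shows no binding.

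Summed, the 8 genes took their highest share of RNA in enteroendocrine-gated cells, the hormone-secreting cells of the gut, although Idi1 and Fdps did not do so in set 2. Here 6 of the 8 genes, all but these, were higher than in all other kept cells of the same set, in both sets, by the call rule used throughout: at least 10 CPM in a group, a change of at least 1.5-fold on CPM plus 1, and intervals that do not overlap. This has to be read against 46.8% of all genes called higher in set 1, 42.1% in set 2 and 39.8% in both. The median log2 ratio over the 8 genes was 1.24 in set 1 and 0.79 in set 2, beside 0.50 and 0.38 over all genes at the floor.

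Hmgcs1, which acts near the entry of the mevalonate arm, stood at 697 CPM (interval 671 to 724) in enteroendocrine-gated cells of set 1. It was at 441 CPM (422 to 462) in those of set 2, and other cells had 261 and 194 CPM. The log2 ratios were 1.41 and 1.18. Its level in this gate was above that of every other class in both sets with no overlap of intervals, and it was lowest in the revival gate, at 133 and 109 CPM.

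Idi1 and Fdps, further down the same arm, behaved unlike Hmgcs1. Idi1 was at 229 CPM in enteroendocrine-gated cells of set 1 against 167 in other cells, and at 127 against 140 CPM in set 2, so that the log2 ratio was 0.45 in one set and -0.14 in the other. Fdps was at 238 against 172 CPM in set 1 and at 160 against 153 CPM in set 2, ratios of 0.46 and 0.06. Neither gene was called in either set, and both lay below the all-gene median in both.

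In the sterol arm, Sqle, a second control point of the pathway, was at 212 CPM against 84.8 in set 1 and at 135 against 71.1 CPM in set 2, log2 ratios of 1.31 and 0.92. Fdft1, which commits farnesyl diphosphate to sterols, was at 108 against 50.1 CPM and at 77.0 against 50.9 CPM, ratios of 1.10 and 0.59. Lss was at 67.3 against 29.2 CPM and at 46.6 against 28.9 CPM, ratios of 1.18 and 0.67. All 3 were called in both sets, but the set 2 calls of Fdft1 and Lss were close to the 1.5-fold limit. Both were lost in some other settings, given in the section on processing.

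Both control genes were called in both sets. Insig1, the sterol-dependent anchor of SREBP2, was at 417 CPM against 154 in set 1 and at 318 against 143 CPM in set 2, ratios of 1.43 and 1.15. Srebf2 was at 165 against 60.2 CPM and at 140 against 58.0 CPM, ratios of 1.44 and 1.25. For both genes the enteroendocrine gate stood above all other classes with no overlap of intervals in either set. Below the first place most neighbours in the order of levels had overlapping intervals.

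**Figure D1:**
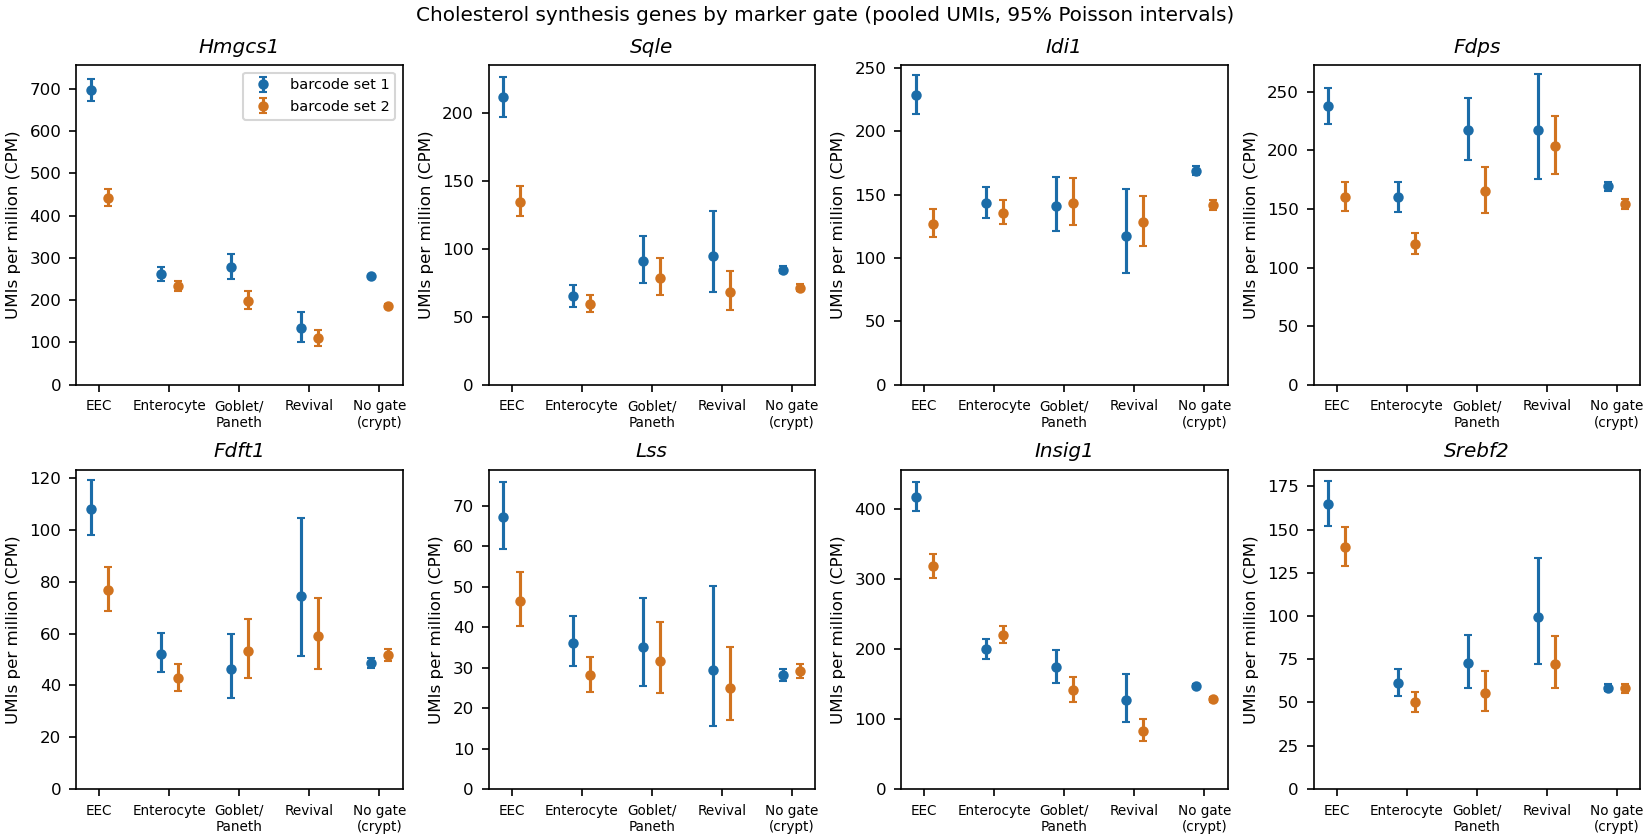
Each panel shows 1 gene, with the level in CPM (vertical axis from 0) for 5 marker gates (horizontal axis) in set 1 (blue) and set 2 (orange). Points are UMIs pooled over the cells of a gate and bars are 95% Poisson intervals. Hmgcs1 stood at 697 and 441 CPM in the enteroendocrine gate (EEC), whereas Idi1 in set 2 was no higher there, at 127 CPM, than in crypt cells.

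In UMIs per cell the 8 genes summed differed less between the gates than in share. Enteroendocrine-gated cells held fewer UMIs in all, with medians of 13821 and 14438 against 32661 and 31221 in crypt cells. Summed over the 8 genes, the share was 2133 CPM in set 1 and 1446 in set 2, against 961 and 821 CPM in crypt cells. In UMIs per cell the same sums were 29.7 and 22.9, against 27.6 and 25.2. For single genes, Hmgcs1 gave 9.70 and 6.98 UMIs per enteroendocrine-gated cell against 7.47 and 6.06 per other cell, whereas Idi1 gave 3.18 and 2.01 against 4.77 and 4.38. Depth also went with Insig1 among crypt cells alone, at 257 and 239 CPM in cells under 10000 UMIs against 145 and 126 in deeper ones, while Hmgcs1 in set 1 was lower in the shallow cells, at 220 against 257 CPM. Values at like depth follow.

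Another large part of the RNA differed with the gate: UMIs of genes named Rpl or Rps, the ribosomal protein genes, made up 15.7% and 13.8% in enteroendocrine-gated cells against 34.0% and 32.2% in crypt cells. With those genes taken out of the total, a scaling added after the values were seen, the all-gene median fell to 0.18 in set 1 and 0.08 in set 2, and the median of the 8 genes to 0.93 and 0.51. On that scale 6 of the 8 genes were called higher in set 1, against 35.8% of all genes, and 4 in set 2 (Hmgcs1, Sqle, Insig1 and Srebf2), against 31.7%. Idi1 and Fdps were then at 0.13 and 0.14 in set 1 and at -0.43 and -0.23 in set 2, so the sign for Fdps in set 2 turned. Among cells of 8000 to 20000 UMIs, where depths are alike, 7 genes were called higher in set 1 (Idi1 joined at 0.63), against 34.2% of all genes, and 4 in set 2, the same 4 as on that scale, against 31.2%.

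Cell by cell, the 8 genes were also spread widely within the gate. Over enteroendocrine-gated cells of at least 5000 UMIs, the summed share had a median of 1835 CPM in set 1, with an interquartile range of 1220 to 2626 and a maximum of 9789 CPM. In set 2 the median was 1334 CPM, with quartiles at 987 and 1881. Crypt cells had medians of 928 and 748 CPM and upper quartiles of 1161 and 997 CPM, so in set 1 the lower quartile of enteroendocrine-gated cells lay above the upper quartile of crypt cells, and in set 2 these quartiles nearly met. No handful of cells carried the result, since the 3 cells with most Hmgcs1 UMIs held 7.25% and 6.67% of them.

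**Figure D2:**
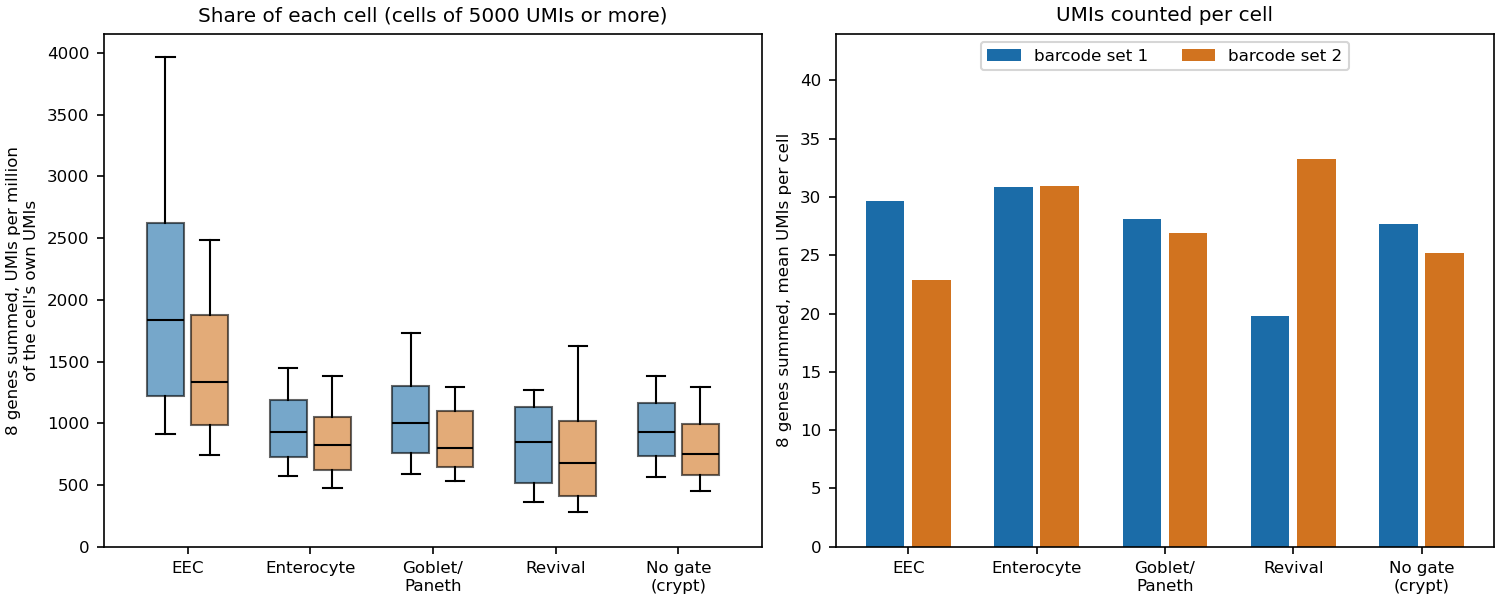
The left panel shows the 8 genes summed, as CPM of each cell's own UMIs, for cells of 5000 UMIs or more: boxes span the quartiles, lines mark medians and whiskers the 10th and 90th percentiles. The right panel shows their mean UMIs per cell over all cells of a gate; the enteroendocrine gate (EEC) is highest on the left, at medians of 1835 and 1334 CPM, but not on the right, at 29.7 and 22.9 UMIs.

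Detection per cell was set beside that of crypt cells after thinning each cell to 5000 UMIs. Among enteroendocrine-gated cells Hmgcs1 would then be seen in 87.7% (set 1) and 80.1% (set 2), and among crypt cells in 67.8% and 55.7%. Srebf2 would be seen in 53.6% and 50.3% against 25.1% and 25.1%. Idi1 differed little, at 57.8% and 43.4% against 54.1% and 48.4%. Without thinning, Hmgcs1 was seen in 90.7% and 94.0% against 85.3% and 88.1%. This left 243 and 249 enteroendocrine-gated and 1455 and 1071 crypt cells. As a gauge of free RNA, the enteroendocrine gene Chgb, which crypt cells should lack, would be seen in 21.6% and 19.6% of crypt cells, at median depths of 35622 and 33191 UMIs. Chgb stood at 41789 CPM in the enteroendocrine gate of set 1, so its share in crypt cells is no measure for genes of much lower level, and the free RNA of the 8 genes themselves was not measured.

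Within the enteroendocrine gate the summed share was higher in cells with Tph1, the serotonin synthesis gene that marks enterochromaffin cells. In cells with at least 3 Tph1 UMIs per 10000 (174 in set 1 and 155 in set 2), the 8 genes summed to 2414 and 1624 CPM, against 1582 and 1229 CPM in the other cells of the gate. Insig1 stood at 486 and 402 CPM against 282 and 217, and Fdft1 at 126 and 96.1 CPM against 74.0 and 53.7. Idi1 was higher in the Tph1 cells of set 1, at 258 against 171 CPM, but lower in those of set 2, at 115 against 142, and Fdps was at 244 against 226 CPM in set 1 and at 149 against 174 in set 2. A split by Tac1, the substance P gene, gave a like pattern, with 2300 and 1568 CPM against 1503 and 1208. Of 7 splits by genes other than Tph1, chosen after values were seen, 5 had lower sums in the cells with the hormone in both sets. For Gcg, the glucagon gene, these were 1255 and 1165 CPM against 2219 and 1546, and for Ghrl, the ghrelin gene, 1370 and 1214 CPM against 2219 and 1528. Cck gave 1821 and 1322 CPM against 2316 and 1544, Sct 1713 and 1301 against 2338 and 1514, and Gip 1082 and 1338 against 2204 and 1463. The Gip intervals overlapped in set 2, at 1246 to 1436 and 1424 to 1503 CPM. Depth moved with some of these splits, with medians of 17934 and 19767 UMIs in Gcg cells against 13712 and 13929, and of 16444 and 20267 in Ghrl cells against 13699 and 14004. In set 2 it was lower in Tph1 cells (14017 against 17566) and in Tac1 cells (14236 against 16253). In set 1 it was higher in both (14232 against 12922 and 14232 against 12714). The part of depth was not tested. Cells with Neurog3, which marks endocrine progenitors, had no lower sums than the rest, at 2182 and 1660 CPM against 2111 and 1401.

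The 8 genes varied together more between enteroendocrine-gated cells of set 1 than between those of set 2 or the crypt and enterocyte-gated cells of either set. Over 28 gene pairs, Pearson's r across cells (of the log of UMIs per 10000 plus 1) had a median of 0.36 in the 279 cells of set 1, from 0.24 to 0.55, and all 28 pairs were above 0.2. Among the 266 cells of set 2 the median was 0.14 and 8 pairs were above 0.2, at similar median depths. Crypt cells had medians of 0.10 and 0.15 over 1778 and 1187 cells, and enterocyte-gated cells 0.15 and 0.21. Without the 5% of cells with the highest summed share, the enteroendocrine medians were 0.29 and 0.11. Cells of a set share a library and differ in depth, so these values are descriptions.

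**Figure D3:**
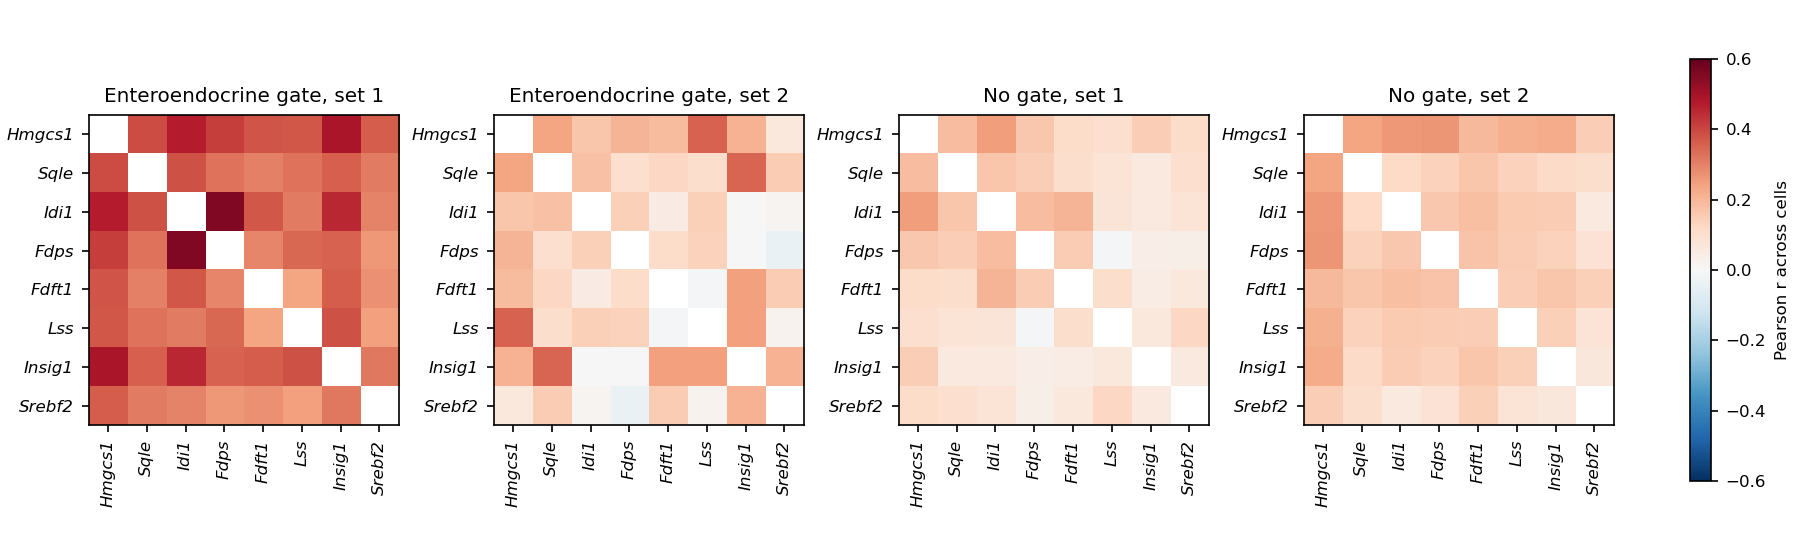
Each square is Pearson's r (colour scale from -0.6 to 0.6) between 2 of the 8 genes across single cells, for the enteroendocrine gate and for cells in no gate, in set 1 and set 2. The panel for the enteroendocrine gate of set 1 is the darkest, with r from 0.24 to 0.55, and the median falls to 0.14 in set 2.

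Among the 43 other pathway genes, 16 were called higher in enteroendocrine-gated cells in both sets and 4 lower, beside 39.8% and 16.4% of all genes. Counted with the 8 genes, 2 of 8 mevalonate genes were higher in each set and 1 lower in set 2, while the sterol arm had 6 of 12 higher (set 1) and 5 (set 2) and the control genes 5 of 7 and 4, beside 46.8% and 42.1% of all genes. The mevalonate median was 0.46 in set 1 and -0.14 in set 2, below that of all genes in both. Msmo1, a sterol demethylation enzyme, was higher at log2 ratios of 1.47 and 1.39, with 377 and 318 CPM against 135 and 121. Of 7 genes of uptake and its control, 5 were higher in both sets, a count that the floor fixes in part, as given below for Vldlr and Mylip. They included the lipoprotein receptor gene Vldlr (68.8 and 75.3 CPM against 8.28 and 11.5), Npc1l1 (1.63 and 1.02 on the log2 scale), Scarb1 (1.13 and 0.91) and Mylip, the gene of a ubiquitin ligase that marks lipoprotein receptors for breakdown (1.85 and 1.99). The fatty acid genes Acly and Fasn were also higher, at log2 ratios of 2.21 and 2.22 and of 1.48 and 1.53.

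The exporters split in direction. Abcg1 and Abca1, sterol exporters under control of oxysterol-sensing receptors, were higher in enteroendocrine-gated cells, Abcg1 at 19.9 and 29.7 CPM against 0.31 and 0.68 and Abca1 at 11.6 and 27.8 against 2.41 and 5.12 CPM. Both, like Mylip and Npc1, passed the floor of 10 CPM only through this gate, as did Vldlr and Scap in set 1. Abcg5 passed only through the other cells, as did Abcg8 in set 1, so the filter in part fixed the direction of all these genes and the counts they enter. Abcg5 and Abcg8, the apical exporters, were lower, with log2 ratios of -1.37 and -2.22 for Abcg5. The late sterol enzyme Ebp was lower as well, at -1.27 and -1.12, as was the desaturase Scd1, at -0.83 and -1.01. With ribosomal protein genes out of the total, 12 of the 43 were higher in both sets and 7 lower, beside 29.3% and 23.2% of all genes, and with cells of like depth 10 and 5, beside 26.8% and 11.3%.

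**Figure D4:**
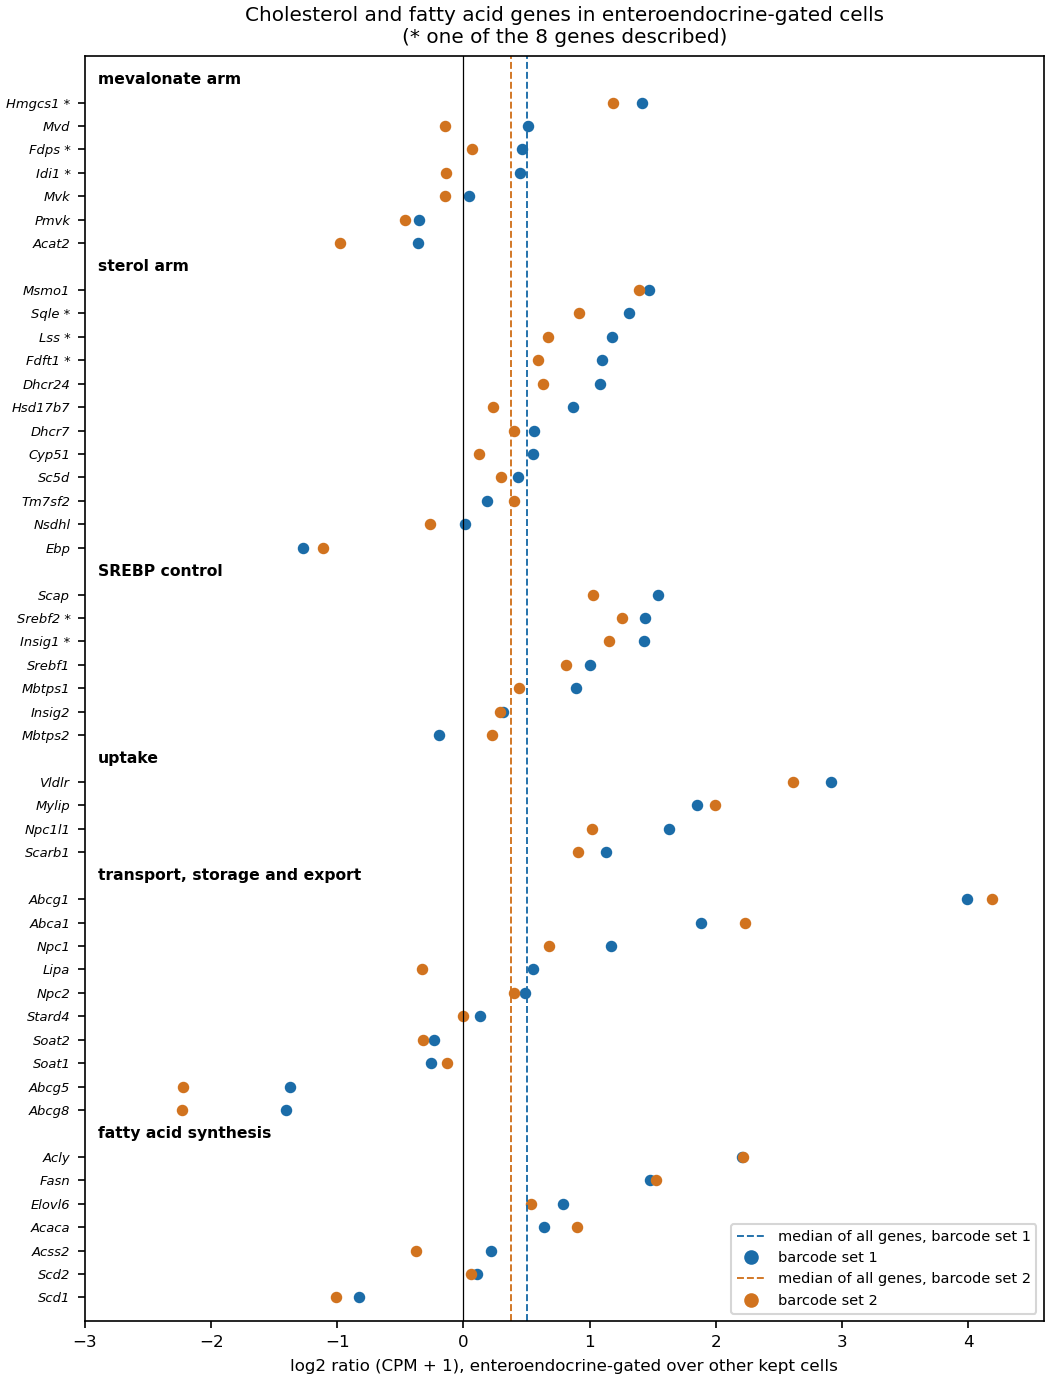
Each row is 1 of the reported genes of the pathway lists, grouped by role, and the horizontal axis is the log2 ratio of enteroendocrine-gated over other kept cells (CPM plus 1) in set 1 (blue) and set 2 (orange); asterisks mark the 8 genes. Dashed lines are the medians of all genes, 0.50 and 0.38: Hmgcs1, Insig1 and Srebf2 lie to their right in both sets, Idi1 and Fdps to their left.

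In enterocyte-gated cells, the absorptive cells, the 8 genes stayed near the level of other cells, with 0 called in either set, against 47.8% of all genes called in either direction in set 1 and 51.7% in set 2. The median log2 ratio was -0.14 in set 1 and -0.23 in set 2, beside all-gene medians of -0.24 and -0.28. Insig1 was the highest of the 8, at 200 against 169 CPM in set 1 and at 220 against 149 CPM in set 2 (log2 ratios of 0.24 and 0.56). Sqle was the lowest in set 1, at 65.3 against 94.6 CPM, and at 59.8 against 78.6 CPM in set 2. The other cells include the enteroendocrine-gated ones. Against crypt cells alone, Insig1 was at 200 against 147 CPM in set 1 and at 220 against 128 CPM in set 2. Sqle was at 65.3 against 84.8 CPM and at 59.8 against 71.5 CPM. For both genes the intervals were apart in both sets. UMIs of ribosomal protein genes made up 20.8% and 16.8% of this gate, and with them out of the total 4 genes were called lower in set 2 (Sqle, Fdps, Fdft1 and Srebf2), against 47.7% of all genes, and 1 in set 1 (Sqle), against 42.9%.

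Of the wider pathway, 9 of the 43 other genes were higher in both sets and 4 lower, beside 14.5% and 27.8% of all genes. Higher were exporters (Abcg5, at 137 and 190 CPM against 14.4 and 26.5, Abcg8 and Abca1), uptake genes (Npc1l1, at 104 and 153 CPM against 30.6 and 33.0, and Scarb1), Lipa, Soat2, which esterifies cholesterol for chylomicrons, the desaturase Scd1 and the late sterol enzyme Sc5d. Those lower included Scap, Acly (-1.46 and -1.29 on the log2 scale) and Fasn. Acly, Fasn, Scd1, Abcg5 and Abcg8 were thus called in opposite directions in the enterocyte and enteroendocrine gates in both sets. Each of these gates is part of the other cells that the other gate is set against, so the opposite calls are not independent. Abca1, Npc1l1 and Scarb1 were higher in both gates. Abca1 (24.7 and 23.8 CPM against 1.54 and 4.71) and Lipa passed the floor only through the enterocyte gate, as did Soat2 in set 1, and Scap only through the other cells, so the filter in part fixed their direction.

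The goblet or Paneth gate showed 0 of the 8 genes called in either set, against 13.5% and 10.3% of all genes. Of the 43 other pathway genes 3 were lower there in both sets, beside 3.25% of all genes, namely Npc1l1 (-1.79 and -1.32), Scarb1 (-1.18 and -0.96) and Scd1 (-1.01 and -0.70). Npc1l1 passed the floor in set 1 only through the other cells. The 8 genes had median log2 ratios of 0.00 and 0.03, and 3 cells held 24.6% of its Hmgcs1 UMIs in set 1. In the revival gate Hmgcs1 was lower in both sets, at 133 against 290 CPM and at 109 against 217 CPM, log2 ratios of -1.11 and -0.98. Insig1 was called lower in set 2, at 83.1 against 159 CPM, and was at 127 against 171 CPM, not called, in set 1. Over all genes 9.04% were called lower in set 1, 11.8% in set 2 and 5.33% in both. The gate held 20 and 29 cells with median depths of 11182 and 43889 UMIs, and 3 of them held 55.9% of its Hmgcs1 UMIs in set 1 and 31.9% in set 2. As a mean over cells the Hmgcs1 ratio of set 2 was -0.56, no longer called. Of the 43 other pathway genes, 6 were lower there in both sets, Dhcr7, Scd1, Scd2 and Abcg8 among them, and 1, Insig2, was higher, beside 5.33% and 10.1% of all genes. Abcg8 passed the floor in set 1 only through the other cells.

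Crypt cells were split by their share of G2 and mitosis genes and then of S phase genes into 1368, 206 and 204 cells in set 1 and 653, 294 and 240 in set 2, for G2/M, S and low-cycling. None of the 8 genes was called for S phase over low-cycling cells, against 10.3% and 9.75% of all genes, or for G2/M over low-cycling cells, against 13.7% and 13.9%. Hmgcs1 stood at 267 CPM in G2/M, 202 in S and 184 in low-cycling cells of set 1, and at 204, 154 and 164 CPM in set 2. Its intervals in G2/M lay above those in low-cycling cells in both sets, but the log2 ratios, 0.53 and 0.32, did not reach 1.5-fold. The median log2 ratio of the 8 genes for G2/M was 0.20 in set 1 and 0.24 in set 2, beside 0.10 and 0.14 over all genes. Sqle gave 0.40 and 0.51, Fdps -0.13 and -0.09. Of the 43 other genes, Mbtps2, a protease gene of SREBP processing, was higher in G2/M in both sets (1.26 and 0.60), and Abcg8 was lower in G2/M (-0.88 and -0.63) and in S phase (-1.15 and -0.59). Over all genes 6.69% were higher and 1.65% lower in G2/M in both sets, and 0.676% were lower in S phase. Mbtps2 passed the floor only through the G2/M cells.

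Depth moved with the phases, with medians of 35658, 27167 and 10424 UMIs in set 1 and 37873, 30649 and 23739 in set 2 for G2/M, S and low-cycling cells. Its part in these values was not tested. The direction also rested on the choice of cells: over all kept cells, where low-cycling cells include the enteroendocrine ones, 5 of the 8 genes were called lower in G2/M in set 1 and 1 (Insig1) in set 2, against 31.8% and 21.9% of all genes called lower there, and as means over cells the crypt median for G2/M in set 1 was -0.03 instead of 0.20.

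Between the barcode sets, all 8 genes were lower in set 2 than in set 1, but none by the call rule over all kept cells, where 3.78% of all genes were called in either direction. Hmgcs1 had 289 CPM in set 1, with an interval of 285 to 293, whereas set 2 had 214 CPM, with 210 to 218, a log2 ratio of -0.43. Idi1 was at 171 and 139 CPM, Sqle at 92.8 and 76.3 and Fdps at 177 and 154. For these 4 genes and for Insig1 (171 and 157 CPM) the intervals did not overlap, whereas Fdft1, Lss and Srebf2 overlapped. The median ratio of the 8 was -0.16, beside 0.05 over all genes at the floor. Over all settings it ran from -0.43 to -0.15. At like depth Hmgcs1, Sqle and Idi1 were called lower, as given in the section on processing with the share of all genes.

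The gap was widest in enteroendocrine-gated cells, where 3 of the 8 genes were called lower in set 2, against 3.29% of all genes called lower and 4.76% in either direction. Idi1 was at 127 against 229 CPM (log2 ratio -0.84), Hmgcs1 at 441 against 697 (-0.66) and Sqle at 135 against 212 (-0.65). The other 5 genes ran from -0.56 for Fdps to -0.24 for Srebf2, and the median of the 8 was -0.54, beside -0.06 over all genes. The median depths of this gate were 13821 and 14438 UMIs and its enteroendocrine markers made up 4.91% and 4.70% of UMIs. Its make-up differed, with 21 cells at the Gcg limit in set 1 and 62 in set 2, and 26 and 59 at the Ghrl limit, both with lower sums as given above; the part of this in the ratio was not tested. On either side of each split the sum was higher in set 1, except in cells at the Gip limit (22 and 34), at 1082 CPM in set 1 and 1338 in set 2. In cells at the Gcg and at the Ghrl limit the intervals of the sets overlapped. Of the 43 other pathway genes, Acat2 and Hsd17b7 were lower and Tm7sf2 and Abca1 higher.

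In crypt and in enterocyte-gated cells none of the 8 genes was called between the sets, against 3.27% and 5.91% of all genes. In crypt cells Hmgcs1 was at 256 CPM in set 1 and 187 in set 2 (-0.45), while Fdft1 and Lss lay slightly above 0, at 0.09 and 0.05. Enterocyte-gated cells gave a median of -0.22, with 7 of the 8 genes below 0. The ratios ran from -0.41 for Fdps (120 CPM in set 2 and 160 in set 1, intervals apart) to 0.14 for Insig1, with Hmgcs1 at -0.16. Whether the ratio differs between gates was not tested, since each set is 1 pool of cells. Outside synthesis, Lipa, Abcg5 and Abcg8 were higher in set 2 over all kept cells (log2 ratios of 0.79, 1.03 and 0.97), against 2.73% of all genes. Enterocyte-gated shares were 5.30% of cells in set 1 and 9.91% in set 2, and the part of that share in these ratios was not tested. Abcg8 was also called higher in set 2 within the enterocyte gate (0.62) and within crypt cells (0.71), against 2.18% and 1.93% of all genes. In each it was 1 of 2 genes called higher among the 10 of transport, storage and export, whose ratios reached 0.69 and 0.81.

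**Figure D5:**
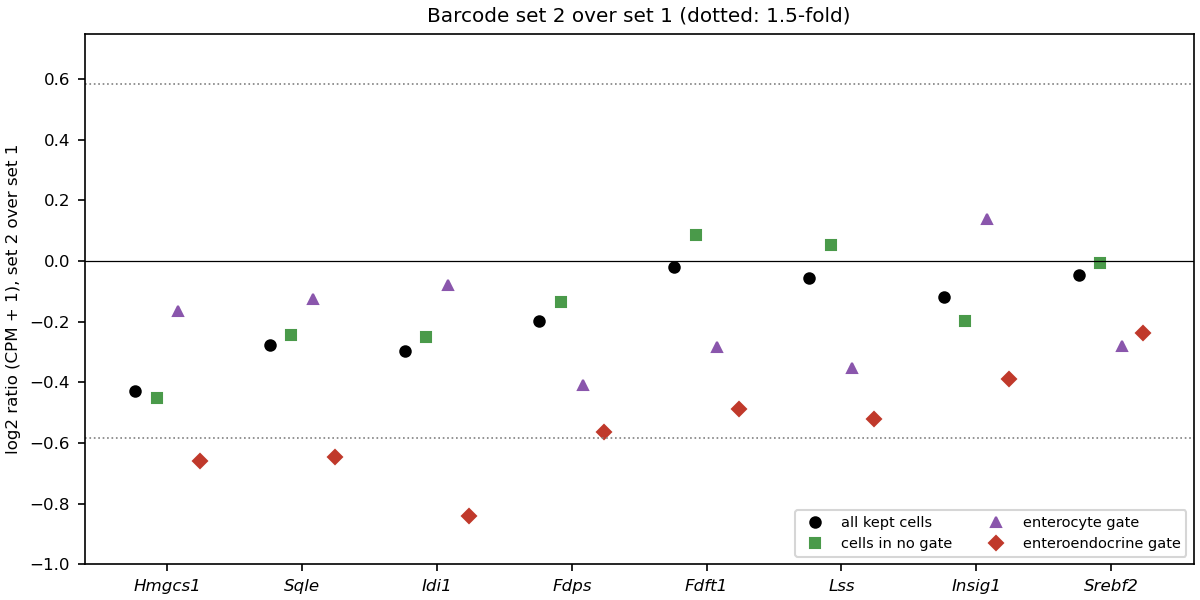
The log2 ratio of set 2 over set 1 (CPM plus 1, vertical axis) is plotted for the 8 genes (horizontal axis) over all kept cells, cells in no gate, and the enterocyte and enteroendocrine gates, with dotted lines at 1.5-fold. In the enteroendocrine gate Idi1, Hmgcs1 and Sqle lie past the lower line, at -0.84, -0.66 and -0.65, and no point lies past the upper one.

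Genes were last ranked by how closely they followed the 8 genes from cell to cell, as Pearson's r with their summed share, averaged over the sets, for 7121 genes at 10 CPM or more in both (each member against the other 7). Over all 4066 cells Hmgcs1 had a mean r of 0.40 and Msmo1 of 0.39, and the 10 closest genes outside all lists were Atp6v1b2, Pam, Nkx2-2, Cacna1a, Slc18a1, Bex2, Tuba1a, Insm1, Hepacam2 and Scn3a, from 0.35 to 0.33. Several of these, such as Nkx2-2 and Insm1, are regulators of endocrine cells. Of the 50 closest genes 4 came from the other pathway lists, which make up 0.52% of the genes ranked.

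Inside the enteroendocrine gate Hmgcs1 ranked first at 0.48, with Insig1 and Cyp51 at 0.44 each, and 7 of the 50 closest were other pathway genes. The 10 closest outside the lists were Neat1, Egr1, Hsp90b1, Klf6, Bnip3, Calr, Ywhaz, Atp6v1b2, Jun and Ftl1, from 0.40 to 0.35. These are means over unlike sets: r was higher in set 1 for each of them, for example 0.53 against 0.25 for Egr1, an early response gene, and 0.50 against 0.21 for Calr, a chaperone of the endoplasmic reticulum. Egr1 stood at 1095 and 1059 CPM in this gate against 217 and 271 CPM in crypt cells; its part in the levels of the 8 genes was not tested.

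In crypt cells the values were lower. Scd2 led at 0.29, with Hmgcs1 at 0.27, and 8 of the 50 closest were other pathway genes. In crypt cells of 20000 UMIs or more, 1263 in set 1 and 899 in set 2, Hmgcs1 reached 0.45, Scd2 and Msmo1 0.44 each, and 15 of the 50 closest were other pathway genes. The closest genes outside the lists there were Actb, Tpi1, Pgam1, Ldha, Pgk1, Egln3, Tfrc, Car9, Aacs and Bsg, from 0.29 to 0.23, with r higher in set 2 for most, for example 0.16 in set 1 and 0.39 in set 2 for Tpi1, a glycolysis enzyme. All these r values are over cells that share a library and differ in depth.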

How the data were processed

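The authors deposited raw UMI counts per gene and barcode for a control and a melatonin library. Per the submitters' processing notes, Cell Ranger 3.1.0, STAR 2.7.3a and bcl2fastq 2.20.0 were used; the genome build is not given in the sources used here. The files of both samples were identical in 3 of 3, so the planned fallback of 1 matrix split by barcode suffix was used.

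Cells were gated with pandas 2.3.3 and numpy 2.4.6 by marker UMIs per 10000: at least 20 enteroendocrine, 100 enterocyte, 50 goblet or 50 Paneth, 10 revival and 10 tuft, and 15 G2 and mitosis or else 7 S phase for phases. These limits cut continuous ranges: 66 cells lay within 1.5-fold of the enteroendocrine limit, 126 of the enterocyte, 82 of the goblet, 147 of the Paneth, 71 of the revival, 619 of the G2 and 1324 of the S phase limit. Phases were called within crypt cells. No doublet caller was run. Intervals were exact Poisson or Clopper-Pearson (scipy 1.17.1). Log2 ratios used a pseudocount of 1 CPM, which understates low genes. Thinned shares are hypergeometric expectations. The code for ratios and calls was checked on simulated counts; no significance test was made. The 8 genes, the lists and the gates were chosen with earlier results of these data known. Named were all 8 genes, list genes called one way in both sets (at most 12 a comparison), the 10 closest genes outside the lists, and a few genes picked after values were seen: Egr1, the hormone genes other than Tph1, and Scarb1, Ebp and Scd1 in the enteroendocrine gate and the genes called between the sets. Some pathway genes are counted but not reported by name here.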

Additional observations from a re-analysis of the deposited data

How the results depend on the processing

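All values rest on 1 matrix with no replicates; no paired analysis was possible because each sample stands alone and the barcode suffixes are not tied to samples, and no replicate could be left out. Choices were varied as planned, and depth limits, the scaling without ribosomal protein genes and the removal of shared barcodes were added after seeing the data. No gene called in the main setting changed sign; Hmgcs1, Fdft1, Insig1 and Srebf2, above 0 and not called for G2/M over low-cycling crypt cells of set 1, were called lower there over all kept cells (-0.62, -0.62, -0.87 and -0.71). Over all settings the median of the 8 genes ran from 0.93 to 1.27 (set 1) and from 0.51 to 0.84 (set 2) in the enteroendocrine gate, from -0.58 to -0.47 for set 2 over set 1 there, and from -0.62 to 0.31 for G2/M over low-cycling cells of set 1. Fdft1 in set 2 lost its enteroendocrine call in 7 settings, from 0.30 to 0.58, and Lss in set 2 at a pseudocount of 10 CPM (0.54), without ribosomal protein genes (0.39) and at like depth, 8000 to 20000 UMIs (0.35).

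In the enterocyte gate, genes called lower numbered 1 in set 1 as a mean over cells and 1 (set 1) and 4 (set 2) without ribosomal protein genes, and 1 was called higher in set 2 per non-mitochondrial UMI and with a stricter gate; other pathway genes lower in both sets fell from 4 to 2 at a pseudocount of 10 CPM and at a mitochondrial limit of 10%. In the revival gate, means over cells gave 1 higher and 2 lower in set 1 (18.3% and 21.6% of all genes) and 2 higher and 1 lower in set 2 (18.1% and 17.2%), and 3 were lower in set 1 without ribosomal protein genes (12.3%). For S phase, means over cells gave 1 lower in set 1 (9.82% of all genes); over all kept cells 5 (set 1) and 2 (set 2) were lower in S (34.1% and 25.8%) and 5 and 1 in G2/M (31.8% and 21.9%). Other pathway genes in the enteroendocrine gate numbered 7 lower without ribosomal protein genes and 10 higher at like depth. Between sets at like depth, 3 of the 8 were called lower over all kept cells (Hmgcs1, Sqle and Idi1), against 2.32% of all genes; under 20 cells of the enterocyte, goblet or Paneth and revival gates and of S phase in set 1 had that depth, so by a minimum set after seeing the data no value was taken. Thinned to 2000 UMIs, Hmgcs1 was seen in 65.6% and 53.4% of enteroendocrine-gated and 37.9% and 29.3% of crypt cells, and at 10000 UMIs in 96.7%, 94.2%, 87.2% and 77.2%. Pathway genes among the 50 closest numbered 8, 7 and 15 in crypt, enteroendocrine-gated and deep crypt cells, and 3 promoters matched with 1 mismatch. The causes of these shifts were not tested.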

Other observations

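Barcodes left out by the mitochondrial limit also held these genes. Per 1000000 non-mitochondrial UMIs, Insig1 was at 286 in set 1 and 269 in set 2 over barcodes of 20% to 50% mitochondrial UMIs, and at 236 and 294 over those above 50%, against 189 and 174 in kept cells. Lss was at 61.1 and 58.7, and at 52.6 and 50.6, against 35.0 and 33.7. Hmgcs1 was at 374 and 261, and at 296 and 212, against 320 and 237, so it was not higher in all of them. Idi1 was lower in set 2, at 137 and 124 against 154, and in set 1 above 50%, at 162 against 189, with 182 between. Fdps was lower in set 2, at 134 and 119 against 171, and had overlapping intervals in set 1.

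Crypt cells of under 10000 UMIs (396 in set 1 and 159 in set 2) likewise had more Insig1, at 257 CPM (interval 228 to 287) and 239 CPM (200 to 283), than deeper crypt cells, at 145 and 126 CPM. Hmgcs1 was at 220 and 207 CPM against 257 and 186, lower in one set and with overlapping intervals in the other.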
